A study of Danio rerio with 8 samples.

Results

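The subject is a set of 10 zebrafish genes of the defence against oxidative stress, measured in hearts of larvae exposed to sorafenib or to vehicle. The genes are hmox1b, gss, prdx2, prdx6, gpx1b, gpx4a, gstp1.1, gstp1.2, mgst1.1 and sod1. They were chosen by symbol with the sorafenib-minus-control differences of these same arrays already known, so those differences are described below with no test. The 10 genes have 12 probes on the array, with a second probe each for gpx4a and sod1, and they are 10 of the 21526 genes or unnamed transcripts that entered the fit. All 10 passed the filter on dim signals through both groups, since each representing probe was well above background on all 8 arrays.

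Hearts came from larvae at 4 days post-fertilization. The sorafenib group had been kept in 1 uM of the drug between 72 and 96 hours post-fertilization, and the control group had received the vehicle over the same period. Sorafenib, used against liver and kidney cancers, blocks several kinases, among them RAF and the VEGF and PDGF receptors. The labels name no strain, genotype or transgene, do not say how many hearts were pooled for a sample, and describe 4 independent experiments a group. Each group has 4 Agilent arrays, 8 in all, each read in a single colour (Cy3) from total RNA.

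Cells remove superoxide with superoxide dismutases such as sod1, and the hydrogen peroxide that results is reduced by peroxiredoxins (prdx2, prdx6) and glutathione peroxidases (gpx1b, gpx4a). Glutathione, the reductant of the peroxidases, is made in its last step by glutathione synthetase (gss), and glutathione transferases (gstp1.1, gstp1.2, mgst1.1) couple it to electrophiles. Heme oxygenase (hmox1b) breaks heme down to biliverdin, iron and carbon monoxide. In mammals, transcription of many of these genes is driven by the factor Nrf2, which the adaptor Keap1 holds in check.

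Heart muscle markers were detected on every array: of 19 listed, 12 were measured, among them myl7 and tnnt2a, each well above background on all 8 arrays. The log2 of their summed level was 7.62 to 8.32 in controls and 7.75 to 8.82 with sorafenib. For 8 skin and pharyngeal epithelium markers it was higher, 9.30 to 9.725 in controls and 9.03 to 9.91 with sorafenib. The RNA was thus not of heart muscle alone. Probes of the cardiac factors gata4 and tbx20 were well above background on fewer than 4 arrays. Between 54.98% and 59.54% of spots per array were well above background, and the 75th percentile of the processed signal lay between 84.2 and 153 intensity units. Replicates 1 and 2 of both groups shared a slide, as did replicates 3 and 4. Sorafenib replicates 2 and 3 stood apart in neural markers, with scores of -0.75 and -1.16, whereas the other 6 arrays lay between 0.05 and 0.47. A score is the mean log2 level of a marker list on an array, each gene taken relative to its mean over the 8 arrays. With 8 arrays, the precision of the values below is limited by that number.

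Every one of the 10 genes had a higher mean with sorafenib than with vehicle, and 48.0% of all units tested did. The differences ran from 0.29 for gstp1.2 to 1.70 for hmox1b on the log2 scale, with a median of 0.37, against a median of -0.02 over all units. For hmox1b and gss the 4 sorafenib arrays lay above the 4 control arrays, and for the other 8 genes the groups overlapped. Across all units, 2.23% had their sorafenib arrays entirely above their controls and 1.91% entirely below. Since this contrast chose the genes, nothing is read from these shares. In bulk RNA of a dissected heart, more RNA per cell and more cells of a type that express a gene cannot be told apart. Such cells may be of the heart or of other tissue in the sample.

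Heme breakdown was represented by hmox1b, the gene with the widest separation. Its normalized log2 level, the log2 processed signal of probe A_15_P152991 minus the array's 75th percentile, was 0.53, 1.38, 0.59 and 0.24 in control replicates 1 to 4. It was 1.88, 2.92, 2.85 and 1.89 in sorafenib replicates 1 to 4. The sorafenib arrays thus formed 2 levels, with replicates 2 and 3 about 1 log2 unit above replicates 1 and 4, and the lowest of them lay above the highest control. The group means were 0.69 ± 0.49 (SD, n = 4 arrays) and 2.39 ± 0.58, a difference of 1.70 ± 0.33 (SE of the limma fit) or 3.25-fold. The spread between control arrays was wide for a gene of this array: 81.8% of all units had a smaller control SD. The difference was 1.45 within slide 1 and 1.96 within slide 2.

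Glutathione synthetase, gss, was the only other gene of the set without overlap. Its level was -3.62, -3.52, -4.13 and -4.33 in the controls and -3.09, -2.99, -2.69 and -3.30 with sorafenib, in replicate order. The 4 sorafenib arrays lay close together, with an SD of 0.26 against 0.39 in controls. The difference was 0.88 ± 0.23 (SE), or 1.84-fold, and came to 0.53 on slide 1 and 1.24 on slide 2. The gss probe was also the dimmest of the set by far, with a processed signal of 5.68 to 15.5 intensity units over the 8 arrays. In the log2 table deposited by the authors this probe lies at the table's lowest value on all 8 arrays, so that table holds no difference for it. With a normexp background correction, which adds an offset of 50 intensity units to every probe, more than the whole gss signal, the gss difference was 0.59 when fitted on all spots and 0.16 when fitted without outlier spots. Both values carry the same offset. The fit on all spots was distorted on sorafenib replicates 1 and 4, where the median corrected signal was 37.9 and 513. Set against the difference of 0.88, the effect of the offset and that of the correction cannot be told apart.

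Among the peroxidases, gpx4a, which reduces lipid hydroperoxides in membranes, had a single array far above the rest. Its levels were 5.48, 4.81, 4.75 and 4.60 in controls and 5.28, 5.30, 6.52 and 4.60 with sorafenib. Control replicate 1 exceeded 3 of the 4 sorafenib arrays, so only sorafenib replicate 3 lay above the control range. The difference of 0.51 ± 0.38 (SE) was 0.15 without that array and 0.79 without sorafenib replicate 4. The second gpx4a probe gave 0.46, with 1 sorafenib array above all controls and 1 below them.

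For gpx1b, a cytosolic-type glutathione peroxidase gene, the control levels were 2.86, 3.23, 2.91 and 2.45, and the sorafenib levels were 3.62, 3.57, 4.03 and 2.37. Sorafenib replicates 1, 2 and 3 lay above every control and replicate 4 below every control. The mean difference was 0.53 ± 0.34 (SE), and it stood at 0.87 without sorafenib replicate 4 and at 0.32 without replicate 3.

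Within the sorafenib group the peroxiredoxins followed the same order of arrays as gpx1b, with replicate 3 highest and replicate 4 lowest. The order of the control arrays differed between these genes. The level of prdx2, a cytosolic thiol peroxidase that is abundant in red blood cells, was 7.07, 6.81, 6.76 and 6.65 in controls and 7.24, 7.20, 7.46 and 6.66 with sorafenib. That of prdx6, which reduces phospholipid hydroperoxides, was 2.60, 2.80, 2.53 and 2.69 in controls and 3.06, 2.98, 3.35 and 2.55 with sorafenib. In both genes 3 sorafenib arrays exceeded all controls and replicate 4 lay within the control range. The differences were 0.32 ± 0.21 and 0.33 ± 0.20 (SE). The control SD of prdx6, 0.12, was smaller than that of all but 7.4% of units, while its sorafenib SD was 0.33. The prdx6 difference was 0.21 without sorafenib replicate 3, and so was that of prdx2, which stood at 0.48 without replicate 4.

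Copper-zinc superoxide dismutase, sod1, was read by 2 probes. The brighter gave 6.21, 6.01, 5.69 and 5.71 in controls and 6.55, 6.21, 6.61 and 5.61 with sorafenib, a difference of 0.34 ± 0.25 (SE). The other gave 0.32. In each probe sorafenib replicate 4 was the lowest of the 8 arrays. Without sorafenib replicate 3 the difference of the brighter probe was 0.22, and without replicate 4 it was 0.55.

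Glutathione transferases were represented by 3 genes. The pi-class gene gstp1.1, measured by 5 spots of 1 probe, ranged from 2.58 to 3.34 in controls and from 3.09 to 3.60 with sorafenib, a difference of 0.34 ± 0.21 (SE). It was 0.10 on slide 1 and 0.58 on slide 2, and 0.20 without control replicate 3, its lowest array. Its paralog gstp1.2 ranged from 5.86 to 6.24 in controls and from 6.08 to 6.63 with sorafenib, a difference of 0.29 ± 0.18 (SE). Whether the probes of these paralogs also bind each other's transcript was not tested. The microsomal transferase gene mgst1.1 stood at 0.78, 0.57, 0.44 and 1.096 in controls and at 1.09, 1.42, 0.62 and 1.37 with sorafenib, a difference of 0.41 ± 0.23 (SE). Its order of arrays was another one: sorafenib replicate 3, the highest array for 8 of the 10 genes, was the lowest sorafenib array for mgst1.1, and replicate 4 was among its highest.

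**Figure D1:**
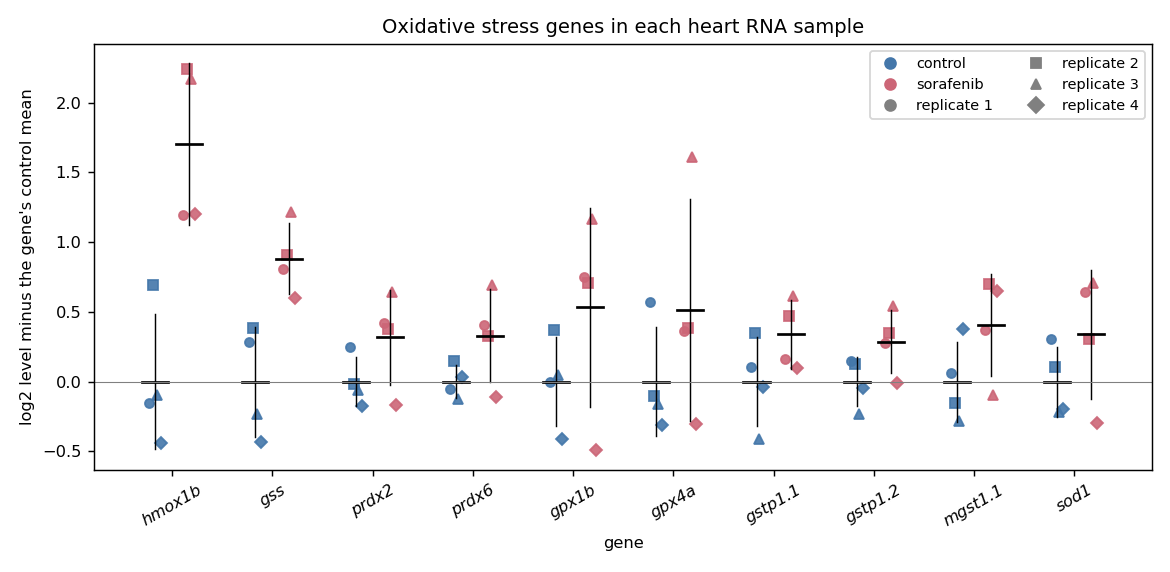
Log2 level of each of the 10 genes on every array, minus that gene's mean over the 4 control arrays (vertical axis), with genes along the horizontal axis. Symbols give the replicate, horizontal bars the group mean and vertical lines 1 SD either side (n = 4 arrays); the groups are apart for hmox1b and gss, and sorafenib replicate 4 lies below the control mean for 6 genes.

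Variation among the arrays was shared by most of the genes. Sorafenib replicate 3 was the highest of the 8 arrays for 8 genes and replicate 2 for the other 2, hmox1b and mgst1.1. Sorafenib replicate 4 lay below the control mean for 6 genes and was the lowest array of all for 2, gpx1b and sod1. Counted per array, 7 genes in sorafenib replicate 1, 9 in replicate 2, 9 in replicate 3 and 3 in replicate 4 exceeded all controls. The 3 were hmox1b, gss and mgst1.1. The share of all units per array is not given here. Since this contrast chose the genes, nothing is read from the counts. After the group means were taken away, Pearson correlations between the genes over the 8 arrays had a median of 0.72 over 45 pairs, and all 9 pairs with mgst1.1 were negative. These arrays share their RNA samples and scaling, so the coefficients are a description. The SD was larger with sorafenib than with vehicle for 8 genes, gss and gstp1.1 being the exceptions, and for 66.8% of all units.

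Markers of other tissues also differed between the arrays. Of 26 liver and plasma protein markers listed, 15 were measured and all 15 had a positive difference, the liver fatty acid binding protein gene fabp10a (0.72) among them and well above background on all 8 arrays. The liver score was 0.45, -0.37, -0.96 and -0.74 in control replicates 1 to 4 and 0.38, 0.55, 1.19 and -0.49 in sorafenib replicates 1 to 4. The log2 of the list's summed level ran from 8.12 to 9.47 in controls and from 8.30 to 9.74 with sorafenib. The highest control liver score was that of replicate 1, which was also the highest control for 4 of the genes (gpx4a, prdx2, sod1 and gstp1.2). Control replicate 2 was the highest control for 5 others (hmox1b, gss, prdx6, gpx1b and gstp1.1) and replicate 4 for mgst1.1. After the group means were taken away, Pearson r with the liver score was 0.47 for hmox1b and -0.38 for mgst1.1. For the other genes of the set it ran from 0.705 (prdx6) to 0.93 (gstp1.2). With the neural score r was -0.87 for hmox1b and 0.49 for mgst1.1, and from -0.74 (prdx6) to -0.49 (sod1) for the others. Scores and genes share the same RNA samples and scaling, so these coefficients are a description. The range of r over all units is not given here. Of 20 markers of the yolk syncytial layer and digestive tract, 17 were measured and 16 had a positive difference, with a median of 1.35 against 0.79 for the liver list. Their score was 1.104, -1.52, -0.97 and -1.096 in control replicates 1 to 4 and 0.02, 0.71, 1.74 and 0.01 in sorafenib replicates 1 to 4. The log2 of their summed level was 7.11 to 8.77 in controls and 7.57 to 9.37 with sorafenib. In this list cpa1 was well above background on only 4 arrays and cel.1 on 5. Of 20 neural markers, 16 were measured and 0 had a positive difference; the log2 of their summed level was 8.24 to 8.62 in controls and 7.13 to 8.33 with sorafenib. Heart muscle markers were positive in 12 of 12 cases, with scores of 0.63 and 0.77 in sorafenib replicates 2 and 3, and of -0.13 and -0.30 in replicates 1 and 4, inside the control range of -0.63 to 0.12. Of 7 endothelial markers measured, 1 had a positive difference, with scores of 0.18 to 0.45 in controls and -0.59 to -0.07 with sorafenib. Among them kdr was well above background on only 4 arrays. Probes of the endothelial markers kdrl and cdh5 were well above background on 0 arrays, so these genes were not measured. Of 10 erythroid markers, which bear on prdx2, 8 were positive. Their score was 0.08, -1.01, 0.07 and 0.10 in control replicates 1 to 4 and 0.09, 0.00, 0.60 and 0.08 in sorafenib replicates 1 to 4. Control replicate 2 and sorafenib replicate 3 thus set the ends of the range, and the other arrays lay close together. Of 4 eye and lens markers measured, 3 were positive. Their scores were -0.94 to -0.14 in controls and 0.28, 2.21, -0.80 and 0.67 in sorafenib replicates 1 to 4. These markers were dim: the log2 of their summed level was -1.528 to -1.145 in controls and -0.9994 to 1.239 with sorafenib. The marker opn1mw1 (2.13) was well above background on 4 of the 8 arrays, the minimum of the filter. For gnat2 (2.09) and rpe65a (-0.24) this held on 7 arrays, and for rlbp1b (0.75) on 8. The part of these tissues in the differences of the 10 genes was not tested.

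**Figure D2:**
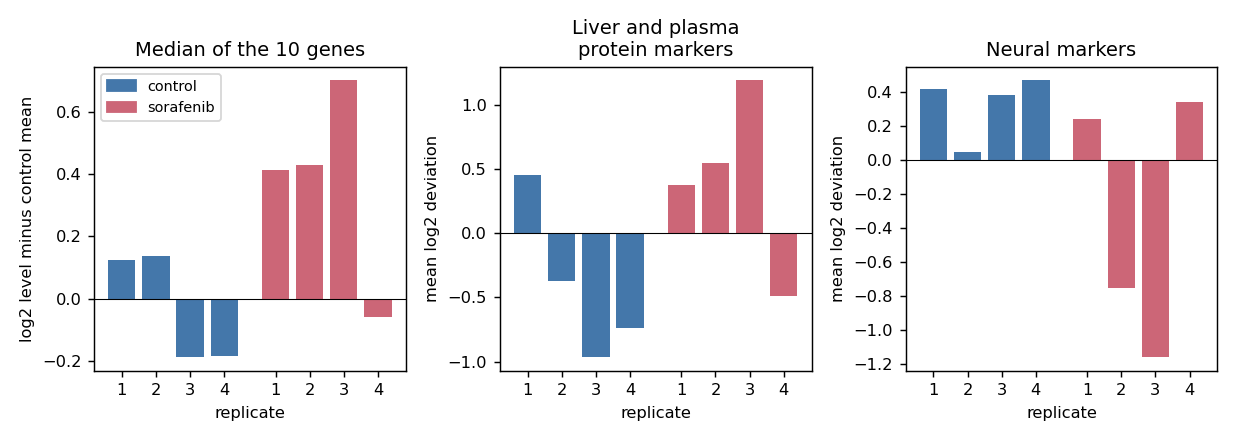
Left, the median over the 10 genes of the log2 level minus the control mean; middle and right, the score of liver and plasma protein markers and of neural markers (mean log2 deviation from the average of the 8 arrays), one bar per array. Sorafenib replicates 1, 2 and 3 are high in the left panel (0.41, 0.43 and 0.70) and replicate 4 is not (-0.06).

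Values without sorafenib replicates 2 and 3, or with a marker score in the fit, stand beside these differences. The 2 arrays hold the highest value of every one of the 10 genes, so leaving them out removes each gene's highest array. Without sorafenib replicates 2 and 3 the hmox1b difference was 1.1998, gss stood at 0.70 and mgst1.1 at 0.51, while the other 7 genes lay between 0.03 and 0.17. With the liver score in the fit, hmox1b stood at 1.39, gss at 0.56 and mgst1.1 at 0.56, and the other 7 between -0.19 and 0.11, with gpx4a (-0.19) and sod1 (-0.07) below 0. With the neural score the values were 1.13 for hmox1b, 0.63 for gss and 0.61 for mgst1.1, and from -0.04 to 0.12 for the rest. With both scores, hmox1b was at 1.16, gss at 0.52 and mgst1.1 at 0.62, and prdx2, gpx1b, gpx4a and sod1 were below 0. Both scores come from these same 8 arrays and themselves differed between the groups. All 15 liver markers and 0 of the 16 neural markers had a positive difference. A score in the fit can therefore take up part of any treatment difference, and how much it took up was not tested.

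**Figure D3:**
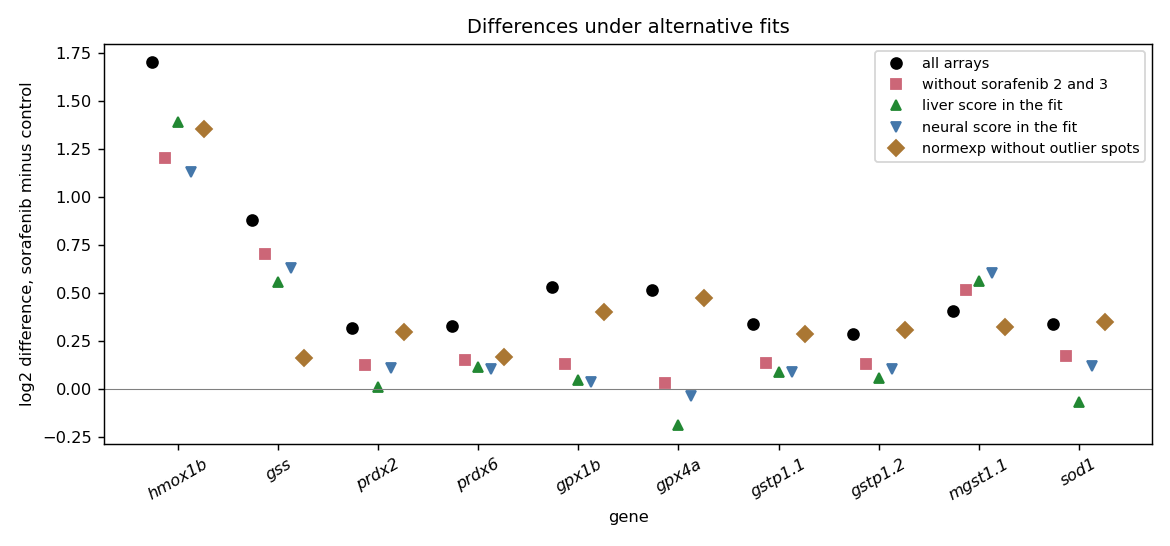
Log2 difference, sorafenib minus control (vertical axis), of each gene in the fit of all arrays, without sorafenib replicates 2 and 3, with the liver or the neural marker score as a covariate, and after a normexp background correction fitted without outlier spots. The first 3 alternatives lower 9 of the 10 genes and raise mgst1.1, and hmox1b stays above 1 in all 5.

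Other genes of the same pathways give the setting of these values. A list of 112 such genes, without the 10, held 75 with a probe matched by name, of which 72 were measured. In the limma fit over all 21526 units, 0 of the 72 passed in either direction after Benjamini-Hochberg adjustment at 0.05, and 0% of all units did. At an unadjusted p under 0.05 limma held 1 gene higher, or 1.39% of the list, and 0 lower, against 4.12% and 3.34% of all units. Positive differences were found for 51 of 72, or 70.8%, against 48.0% of all units. The median was 0.11, against -0.02 over all units, and it was -0.037 without sorafenib replicates 2 and 3. The count of 1 gene higher at an unadjusted p under 0.05 became 11 without sorafenib replicate 4 and 4 without control replicate 1. The share of all units at that threshold without those arrays is not given here, so nothing is read from these counts. The median of the list became 0.03 without sorafenib replicate 3 and 0.24 without replicate 4.

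The gene past that unadjusted threshold was msrb2, a methionine sulfoxide reductase that repairs oxidised methionine. The 4 control arrays averaged 0.93 ± 0.54 (SD) and the 4 sorafenib arrays 1.87 ± 0.40. The difference was 0.94 ± 0.30 (SE, limma unadjusted p = 0.012, adjusted p = 0.577). The groups did not overlap, but the highest control (1.53) lay close to the lowest sorafenib array (1.59). Within the list only msrb2 had its sorafenib arrays entirely above its controls, or 1.39% of the list, against 2.23% of all units. Its second, dimmer probe gave 0.24. Of the 16 thioredoxin and peroxiredoxin genes measured, 14 had positive differences, with a median of 0.14. The thioredoxin-binding gene txnipa stood at 0.34 ± 0.22 (SE), and the glutaredoxin gene glrx2 was the lowest of them at -0.17 ± 0.18.

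Glutathione supply and use had no member past the test. Among 9 genes listed under glutathione synthesis, import and reduction, 7 were positive with a median of 0.20. The list also holds genes of glutathione breakdown and turnover, ggt1b and ggctb among them. The gamma-glutamyl transferase gene ggt1b was at 0.75 ± 0.35 (SE) and ggctb, a gamma-glutamylcyclotransferase, at -0.64 ± 0.29, the most negative difference of the list, and both probes of ggctb were negative. The 2 subunits of the rate-limiting ligase, gclc (0.25) and gclm (0.20), were looked up after their values were seen. The 13 other glutathione transferases had a median of 0.19, with gstt2 at 0.49 and gstt1b at 0.46. The 4 other glutathione peroxidases were split, with gpx1a at 0.23 and gpx8, whose product lies in the endoplasmic reticulum, at -0.38.

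Of 5 other genes of heme breakdown and iron storage measured, 3 were positive, with differences from -0.13 to 0.29 and a median of 0.13. Downstream of hmox1b, the iron exporter gene slc40a1 stood at 0.29 ± 0.20 (SE) and the biliverdin reductase gene blvrb at 0.20 ± 0.20. The other superoxide dismutases, mitochondrial sod2 (0.28 ± 0.23) and extracellular sod3a (0.17 ± 0.15), and catalase were all positive. Among 9 genes of NADPH supply and quinone reduction the transketolase gene tktb and pgd, of the pentose phosphate pathway, both stood at 0.35, but the 3 tktb probes ranged from -0.43 to 0.41. Genes listed as regulators of the Nrf2 pathway were centred on 0, with 4 of 13 positive and a median of -0.02. Among them cul3a, whose product is the scaffold of the ligase that marks Nrf2 for degradation, was at -0.24. The list also counts the kinase gene oxsr1a (-0.17) and its paralog oxsr1b, whose part in the Nrf2 pathway was not tested. The Nrf2 gene nfe2l2a (0.03 ± 0.22), keap1a (-0.05 ± 0.23) and the Nrf2 target nqo1 (0.10 ± 0.18) were also looked up after their values were seen.

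**Figure D4:**
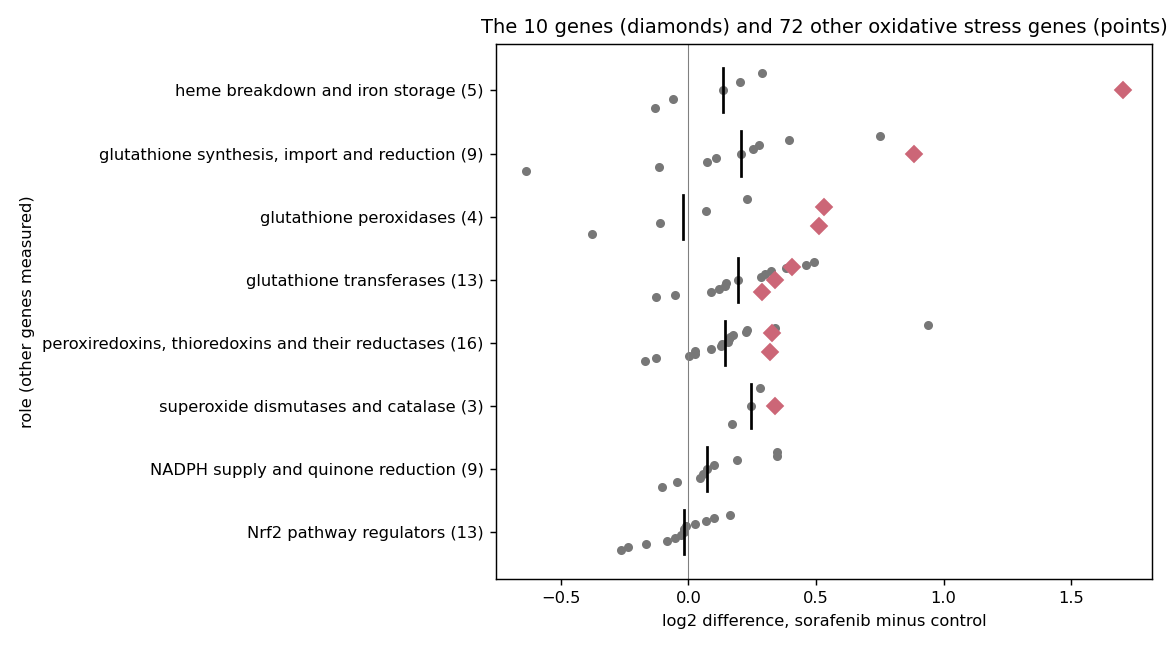
Log2 difference, sorafenib minus control (horizontal axis), of the 10 genes (red diamonds) and of the 72 other oxidative stress genes (grey points) by role, with the number of other genes in brackets and their median as a black line; vertical offsets within a role only separate the points. hmox1b at 1.70 lies beyond every other gene of the plot, and the genes listed as Nrf2 pathway regulators lie around 0.

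The named genes whose pattern over the 8 arrays was most like that of hmox1b were ccne1, entpd4, zgc:110782, hspbp1 and hspb7, with Pearson r from 0.961 to 0.969. They are the 5 highest of 8896 named genes ranked, so their high r is what selected them. After the group means were taken away r was 0.845 to 0.954. The gene ccne1 encodes cyclin E, hspbp1 a co-factor of heat shock protein Hsp70, hspb7 a small heat shock protein of heart muscle, and entpd4 a nucleotidase. Their differences were smaller than that of hmox1b, from 0.36 for hspbp1 to 0.90 for hspb7. The level of hspb7 was -0.75 to -0.11 in controls and 0.02, 0.89, 0.83 and -0.24 in sorafenib replicates 1 to 4, again highest in replicates 2 and 3.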

How the data were processed

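The deposited scanner files give, per array, a linear intensity for every spot that the scanning software had background-subtracted, with no normalization between arrays. The software was Feature Extraction, version 10.1.1.1 per the file headers and 8.0 per the submitters' processing notes. The authors also deposited a table of log2 values for 21383 probes, of unstated centring and filter, which served as an alternative. Of 45220 spots, control spots and 5 to 15 further spots per array, flagged as outliers in signal, were left out, and 0 were saturated. Spots of a probe were averaged as log2 processed signal minus the array's 75th percentile. Units were probes well above background on at least 4 of 8 arrays, named through RefSeq accessions (15163 of 43603 probes, a table of assembly GRCz12tu); the brightest probe stood for a gene. For 9 units, none of them a member, the fit lacked an array that was marked as an outlier.

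Groups were compared with limma 3.58.1 in R 4.3.3 (lmFit, eBayes, no covariates, Benjamini-Hochberg over 21526 units, threshold 0.05, two-sided). The script was tested on simulated data. The 10 genes and all lists were chosen with earlier results of these data known. The naming rule took, from the list of other genes, the 4 smallest p in each direction and the 2 smallest p of each role, and the 5 named genes most correlated with hmox1b. Searches of promoter and protein sequence that had been planned were not run, since no sequence table was used here. The alternatives tried were other background corrections, scalings, filters, probes, blocks, covariates and left-out arrays.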

Additional observations from a re-analysis of the deposited data

How the results depend on the processing

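hmox1b stayed between 1.00 and 1.95 under all 26 alternatives, gss between 0.12 and 1.01 under the 25 that gave it a value, and mgst1.1 between 0.03 and 0.62. A normexp background model fitted on all spots turned 7 genes negative: gpx1b -0.10, gpx4a -0.19, gstp1.1 -0.32, gstp1.2 -0.19, prdx2 -0.18, prdx6 -0.36 and sod1 -0.19, which left 3 positive, a median of -0.18 for the 10 genes and -0.36 for the 72 others, with 3 of these lower at an unadjusted p under 0.05. That fit was distorted on sorafenib replicates 1 and 4, where outlier spots had signal minus background as low as -408.5 and -163702: the median corrected signal was 37.9 and 513 there and 13.6 to 19.6 on the other arrays, and the median of all units moved to 0.13. An alternative chosen after seeing the data was fitted without outlier spots. For this fit these were 404 to 654 spots per array, control spots included, flagged as outliers in signal or local background. The model then gave 13.9 and 20.4 on sorafenib replicates 1 and 4 and positive values for all 10 genes. With it 1 transcript was called higher, and 2 others of the list were higher and 1 lower at an unadjusted limma p under 0.05. Adding quantile normalization gave 2 called higher, 2 lower, and 3 and 1.

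With the liver score as a covariate gpx4a was -0.19 and sod1 -0.066, the median of the 10 genes 0.073 and that of the others -0.10, with 0 higher and 1 lower at an unadjusted p under 0.05. With the neural score gpx4a was -0.039, and the medians were 0.11 and -0.053. With both scores, also added after seeing the data, gpx1b was -0.070, gpx4a -0.26, prdx2 -0.0029 and sod1 -0.047, 6 genes were positive, the medians were 0.032 and -0.13, and 1 other gene was lower. Without sorafenib replicates 2 and 3 the others had a median of -0.037 and 0 genes higher. The cause of these shifts was not tested.

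Over all units 2 transcripts were called higher after quantile normalization, 1 after median scaling, 13 higher and 9 lower with array weights, and 3 higher and 4 lower in the deposited log2 table. Of the other oxidative stress genes, the number higher at an unadjusted p under 0.05 was 2 with median scaling, 2 in the deposited table, 10 with array weights and 0 with the mean of a gene's probes, and 1 was lower with array weights, with the filter on all 8 arrays and with a trend in eBayes; 0 were called after adjustment under any alternative. Leaving out 1 array at a time gave 0 to 1 transcripts called higher and 0 lower, 1 to 11 list genes higher and 0 to 1 lower at the unadjusted threshold, a list median of 0.03 to 0.24 and a median of the 10 genes of 0.23 to 0.52, with all 10 positive. The share of all units at the unadjusted threshold under the alternatives is not given here, so nothing is read from the counts at that threshold. Same-numbered arrays deviated together with r = 0.273, 0.423, 0.038 and 0.697. Every array but sorafenib replicate 3 correlated best with its own number. The labels state no pairing, so whether same-numbered arrays came from 1 experiment cannot be told, and the SEs above are unpaired. A block for the replicate number lowered the SE of every gene of the set, to 0.19 for hmox1b and 0.22 for gpx1b, from 0.33 and 0.34. With the replicate block 0 transcripts were called, and 2 list genes were higher and 1 lower at the unadjusted threshold. In the main fit a p-value sets the difference of the group means against the spread within the groups of these 8 samples, with no pairing. Dim probes such as that of gss limit what a fold can show.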
